A study of Mus musculus with 2 samples.

Results

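The genes described here encode the proteins of the cytosolic ribosome. They were chosen by symbol, as all probes whose platform gene symbol was Rpl or Rps followed by a number and at most a letter and a digit, or Rplp0, Rplp1 or Rplp2. The rule found 62 genes with 79 probes among 16593 genes with 23978 named probes, and used no measured value. Of 83 protein-coding genes of the RefSeq table GRCm38.p6 with such symbols, 62 had a probe. The other 21, among them Rpl11, Rps27a and the testis retrogene Rpl10l, were not analysed here. The rule also takes in 5 paralogs of ribosomal proteins, namely Rpl3l, Rpl7l1, Rpl22l1, Rpl39l and Rps27l, and it passes over Rpsa and Fau, which also encode ribosomal proteins.

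The samples were cultured embryonic fibroblasts of mice on a C57BL background, and transcripts were measured on Illumina bead arrays. The control line, p53-/-, had no p53, which halts the division of damaged cells by switching on other genes. The second line, Dnmt1-/- (p53-/-), lacked p53 as well and also Dnmt1, which copies DNA methylation onto new DNA strands, so loss of p53 was shared by both groups. Each group had 1 array, no test between groups was possible, and every difference below is between 2 samples, whether due to the genotype, the culture or the array.

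The ribosome joins a small subunit, which reads the messenger RNA, to a large subunit, which links amino acids. Each subunit is built from ribosomal RNA and many proteins that are needed in equal numbers, and in growing cells their messenger RNAs are among the most abundant. Most of these messenger RNAs begin with a run of pyrimidines, the TOP motif, through which the kinase mTOR controls their translation as a group. Free ribosomal proteins such as Rpl5 can bind Mdm2 and so stabilise p53, a route without its end point in both of these lines.

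Signals were detected on 10302 of 25697 probes (40.1%) of the p53-/- array and on 10048 (39.1%) of the Dnmt1-/- (p53-/-) array, with a detection p-value below 0.01 taken as detected. Signals are given in the linear units of the scanner before normalization. Levels are log2 values after background correction and quantile normalization, and differences are the Dnmt1-/- (p53-/-) value minus the p53-/- value. The targeted gene Dnmt1 stood at 10.63 log2 in p53-/- cells and at 8.44 log2 in Dnmt1-/- (p53-/-) cells, and the place of its probe relative to the disrupted part was not determined here. Of 9 fibroblast markers on the array 8 were detected on both arrays, among them Vim at 13.35 and 13.32 log2. By 1.5-fold or more, 2 fibroblast markers were higher (S100a4 and Pdgfrb) and 2 lower (Col3a1 and Pdgfra) in the Dnmt1-null line, and the 9 summed to 32888 and 27398 units on the linear scale of the normalized values. Markers of other cell types summed on that scale to 106 and 107 units for 4 endothelial genes, of which 0 were detected, and to 177 and 888 units for 5 epithelial genes, of which 3 were detected, all in the Dnmt1-null line alone. For 3 haematopoietic genes the sums were 180.0 and 320 units (1 and 2 detected), and for 3 neural genes 485 and 203 units (1 and 1 detected).

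Messenger RNAs of the ribosomal proteins were nearly level between the lines. Of 62 genes, 55 were detected on both arrays, 6 on neither and 1, Rpl39l, in the Dnmt1-null line only. Among the 56 detected genes 54 lay within 1.5-fold and 51 within 1.2-fold, 1 was higher and 1 lower by 1.5-fold or more. Over all detected genes 51.9% lay within 1.2-fold. The shares past 1.5-fold over all 7727 detected genes were 9.20% upward and 9.29% downward (18.5% in all), counting a gene undetected on an array at the lowest detected level there. Upward differences were 49.8% of these, but 35.5% with median scaling and 38.9% in the authors' processed values. The higher gene was Rpl39l, a paralog of Rpl39 known from male germ cells, and the lower one was Rpl22, which binds RNA in the large subunit. At 2-fold, which 8.22% of detected genes passed (4.50% upward and 3.71% downward), Rpl39l was the 1 member left.

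The median difference of the 56 detected members was 0.00 log2, beside -0.04 log2 over all detected genes. Their differences had a robust SD (scaled median absolute deviation) of 0.08 log2, against 0.38 log2 over all detected genes. Bright genes scatter less in general, so members were also set beside other genes above a common limit. At a mean level of 12 log2 or more, all 43 members lay within 1.2-fold with a robust SD of 0.07 log2, while 375 of 525 other genes (71.4%) did, with a robust SD of 0.22 log2. The members were still the brighter set, with a median level of 14.19 log2 against 12.73 log2, and the gap in spread was not tested. Below 12 log2, 8 of the 13 detected members (61.5%) lay within 1.2-fold, beside 51.9% of all detected genes. These 13 had a robust SD of 0.22 log2, wider than that of the bright members but below that of all detected genes. Among the 500 detected genes nearest in level to each of the 13, the robust SD ran from 0.27 to 0.54 log2. This gap was not tested either. Members supplied 17 of the 50 brightest probes on each array, where quantile normalization gives equal ranks equal values, and for 3 members the difference was exactly 0 for that reason.

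Before normalization 44 of the 56 detected members had the higher signal on the Dnmt1-null array, and the median log2 ratio of unprocessed signals was 0.058. Among bright genes it was 0.07 for members and 0.04 for the 525 others. Of these, 37 of 43 members and 305 of the 525 others had the higher signal on the Dnmt1-null array. Summed over the 79 probes, ribosomal protein genes took 7.17% of the authors' processed signal on the p53-/- array and 7.43% on the Dnmt1-/- (p53-/-) array. Median scaling put the median of all detected genes at -0.14 log2 and that of the members at -0.03 log2, 0.11 log2 above it. The authors' processed values put them at -0.11 and 0.03 log2, a gap of 0.14 log2. The members' median thus turned sign with the scaling, and lay 0.0093 to 0.14 log2 above that of all genes under the settings tried. In bulk RNA, a share of cells with less of a transcript and less of it in every cell cannot be told apart.

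**Figure D1:**
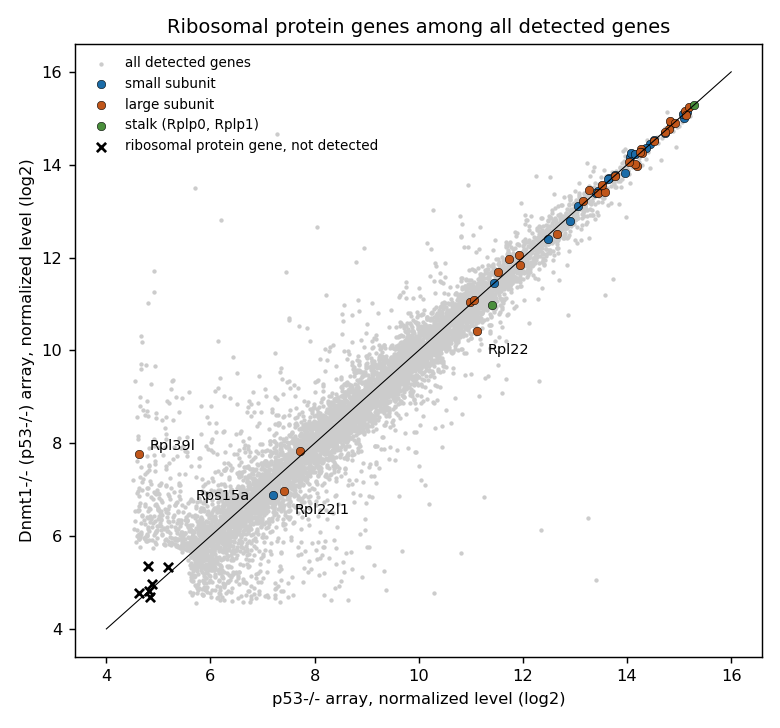
Normalized level (log2) of each gene on the p53-/- array (x axis) and the Dnmt1-/- (p53-/-) array (y axis), 1 array each. Grey points are the 7727 detected genes, coloured points the 56 detected ribosomal protein genes by subunit and crosses the 6 members detected on neither array; the line marks equal levels. Most members sit on the line at the bright end, with Rpl39l above it and Rpl22 below.

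Rpl39l showed the largest difference of any member. In most mammalian cells the small protein Rpl39 lines the tunnel through which the new chain leaves the ribosome, and in male germ cells Rpl39l takes its place. The Rpl39l probe gave 130.4 units on the p53-/- array, with a detection p-value of 0.692, and 310.1 units on the Dnmt1-/- (p53-/-) array, with a detection p-value of 0. The first signal was thus at background and the second above it, and the levels were 4.63 and 7.76 log2. Counted from the lowest level of a detected probe on the control array, 5.57 log2, Rpl39l was at least 4.59-fold higher in the Dnmt1-null line with the background correction used here. The bound of 2.20 log2 compares with a scatter of 0.54 log2 among the 500 detected genes nearest in level, which describes genes of these arrays and not replicates. The bound depended on the background step, at 3.09-fold with a larger offset and 2.08-fold without background correction, and was 4.21-fold with median scaling, 4.54-fold with cyclic loess and 4.22-fold in the authors' values.

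Rpl39 itself, which is X-linked, gave 22234 units on the p53-/- array and 24427 units on the Dnmt1-/- (p53-/-) array, a difference of -0.0061 log2. The Rpl39l probe was therefore not above background in a sample whose Rpl39 signal was high. Of all detected genes 4.75% (367) were, like Rpl39l, detected on the Dnmt1-null array alone. Of 4 germ line markers 0 were detected in the control and 2 in the Dnmt1-null line, of which Tex19.1 (at least 70.6-fold higher) passed 1.5-fold and Dazl (at least 1.42-fold) did not, while Ddx4 and Sycp3, which define germ cells and meiosis, were detected on neither. The summed level of these 4 markers was 120.4 units in the control and 3464 units in the Dnmt1-null line. Nearly all of the second sum was Tex19.1 (3340.2 units), the other markers summed to 90.4 and 123.6 units, and their part in the Rpl39l result was not tested.

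The stretches of 250 bases before the annotated starts of both genes are shown because Dnmt1 methylates the cytosine of CG dinucleotides, given here in capitals. They were read 5′ to 3′ from RefSeq promoters of build GRCm38.p6, for Rpl39l at chr16:10169978-10170227 on the plus strand and for Rpl39 at chrX:37085223-37085472 on the minus strand.
Rpl39l: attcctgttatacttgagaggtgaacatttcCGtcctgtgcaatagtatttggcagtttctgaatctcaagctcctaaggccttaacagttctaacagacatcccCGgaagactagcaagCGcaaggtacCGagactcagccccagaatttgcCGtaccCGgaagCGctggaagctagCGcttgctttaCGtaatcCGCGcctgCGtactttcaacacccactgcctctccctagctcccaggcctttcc
Rpl39: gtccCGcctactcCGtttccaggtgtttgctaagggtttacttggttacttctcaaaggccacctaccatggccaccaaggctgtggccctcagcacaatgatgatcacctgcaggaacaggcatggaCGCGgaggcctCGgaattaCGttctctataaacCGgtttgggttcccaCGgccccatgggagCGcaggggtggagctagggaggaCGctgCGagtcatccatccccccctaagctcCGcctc
Each stretch held 12 CG. The 53 members with a promoter in the table held between 3 and 31, with a median of 18, beside a median of 6 over 27025 genes, and 66.1% of all genes held 12 or fewer. Methylation was not measured on these arrays.

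Rpl22 was lower in the Dnmt1-null line, and its paralog Rpl22l1 differed in the same direction by less than the scatter of its level. Rpl22 sits on the outer face of the large subunit, and in mouse it represses the messenger RNA of Rpl22l1. Its probe gave 2345 units on the p53-/- array and 1459.5 units on the Dnmt1-/- (p53-/-) array, or 11.11 and 10.42 log2. This is a 1.61-fold lower level (-0.69 log2), beside 0.31 log2 of scatter at that level, and between -0.78 and -0.65 log2 under the other settings tried. Rpl22l1 gave 297 units and 224 units, or 7.41 and 6.98 log2. Its difference was -0.43 log2, beside a scatter of 0.46 log2. Each of these genes had 1 probe, so the signals had no check from another probe.

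The other paralogs differed little or were near background. Rps27l, whose gene p53 can activate, gave 16497 units on the p53-/- array and 19890.1 units on the other, a difference of 0.17 log2 within a scatter of 0.20 log2. It was thus bright in lines that both lack p53. Rps27, the protein it resembles, gave 15085 and 15094 units and differed by -0.14 log2. Rpl7l1, which acts in ribosome assembly, gave 2258 and 2271 units and differed by 0.03 log2, and its sign turned with the scaling. Rpl3l, which takes the place of Rpl3 in skeletal and heart muscle, gave 139 units in the control and 140.03 units in the Dnmt1-null line, with detection p-values of 0.397 and 0.0457, so it was detected on neither array at the limit used. On the same arrays 3 of 6 skeletal muscle markers were detected in the control and 5 in the Dnmt1-null line, with summed levels of 415 and 3101 units. These 5 were all higher in the Dnmt1-null line, Ckm was detected on neither array, and their part in the Rpl3l signal was not tested. Rpl3 gave 19628 and 19971 units, a difference of -0.04 log2.

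**Figure D2:**
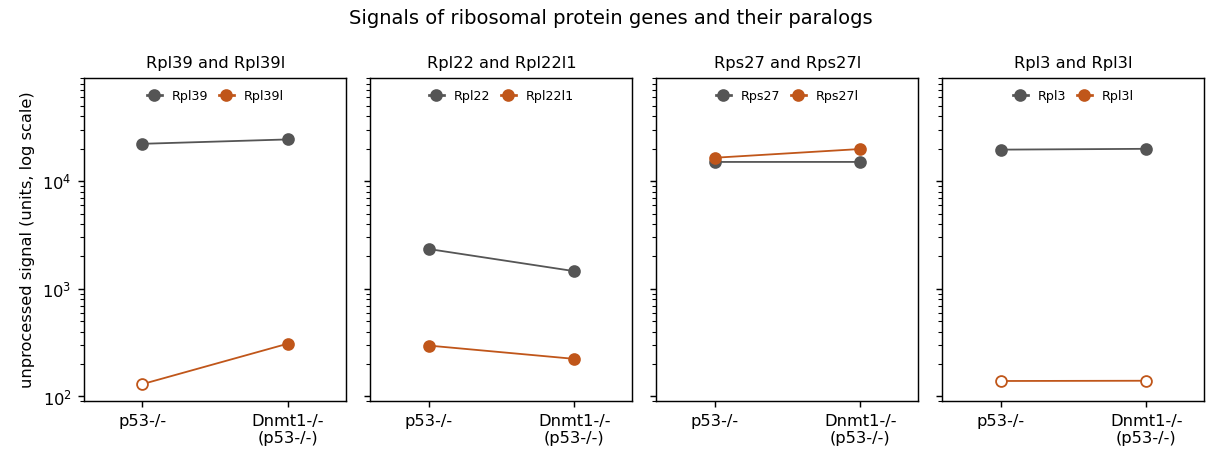
Unprocessed signal (units, log axis) of 4 ribosomal protein genes (grey) and their paralogs (orange) on the p53-/- and Dnmt1-/- (p53-/-) arrays, 1 array each; open circles mark signals that were not detected. Rpl39l goes from not detected at 130.4 units to 310.1 units, Rpl22 and Rpl22l1 are both lower in the Dnmt1-null line, and Rpl3l is not detected on either array.

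The stalk of the large subunit recruits elongation factors. Rplp0, which anchors it, was read by its brighter probe at 2785 units in the control and 2092 units in the Dnmt1-null line. Its difference of -0.43 log2, or 1.35-fold lower, was larger than the scatter of 0.33 log2. A dimmer probe, at 210.9 and 180.5 units, differed by -0.081 log2, in the same direction but by less. Rplp1, which pairs with Rplp2 on the stalk, gave 40668 and 39350.2 units and was the brightest probe of both arrays, so quantile normalization set its difference to 0.00 log2. Other scalings gave -0.15 (median scaling), -0.19 (cyclic loess) and -0.08 log2 (the authors' values). Rplp2 gave 141 and 114 units and was detected on neither array.

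In the small subunit 22 of 23 genes were detected, and 21 of them lay within 1.2-fold, beside 51.9% of all detected genes. The differences centred on 0.0044 log2 (median), and their robust SD was 0.06 log2. The exception was Rps15a, a protein of the small subunit body, which gave 275 units in the control and 216 units in the Dnmt1-null line, or 1.25-fold lower, within the scatter of 0.47 log2 at that dim level. Rps6, the substrate of ribosomal S6 kinases, gave 10967 and 11423 units and differed by -0.01 log2. Rps3, which lies where messenger RNA enters the subunit, gave 13512 and 14705 units by its brighter probe, a difference of 0.01 log2. A dimmer Rps3 probe, at 5837 and 7317 units, differed by 0.253 log2, just past its scatter of 0.241 log2.

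Rps19, the gene most often mutated in Diamond-Blackfan anaemia in humans, gave 16217 units in the control and 19177 units in the Dnmt1-null line, or 0.11 log2. Other genes of the small subunit mutated in that disease were as close. Rps24 gave 28378 and 31200 units (0.04 log2), Rps26 gave 26458 and 27119 units (-0.05 log2), Rps7 gave 17576 and 19636 units (0.08 log2), and Rps10 gave 12626 and 13942 units (0.07 log2). Rps14, whose loss underlies the anaemia of a human chromosome deletion syndrome, gave 21410 and 23175 units and differed by 0.01 log2. By their brightest probes all of these lay within the scatter of 0.20 log2 among genes of their level.

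Among other small subunit genes, Rps2, which helps to read messenger RNA accurately, gave 33184 and 36227 units (0.0087 log2), and Rps20 gave 35907 and 36562 units (-0.01 log2). Rps25, which some viral messenger RNAs need to start translation, gave 5677 and 5666 units (-0.08 log2), and Rps15 gave 7533 and 7404 units (-0.11 log2). Rps12 gave 33566 and 34509 units (-0.08 log2). Rps13, Rps16, Rps21, Rps3a1 and Rps9 differed by between -0.02 and 0.05 log2. None of these genes left the scatter of its level, and about as many lay above 0 (11) as below (10) over the subunit.

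In the large subunit, stalk included, 34 of 39 genes were detected and 30 of them lay within 1.2-fold, beside 51.9% of all detected genes. The 4 other detected genes of the subunit were Rpl39l, Rpl22, Rplp0 and Rpl22l1. Rpl5, which with Rpl11 carries a small ribosomal RNA into the subunit and can bind Mdm2, gave 15882 units in the control and 18051 units in the Dnmt1-null line, a difference of 0.02 log2. Rpl13a, which in human cells treated with interferon leaves the ribosome to silence inflammatory messenger RNAs, gave 3487 and 4181 units and differed by 0.22 log2, within the scatter of 0.28 log2. Rpl38, which in mouse favours translation of Hox messenger RNAs, gave 35761 and 36192 units (-0.06 log2).

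Rpl23a, which lies at the exit of the tunnel and docks the signal recognition particle, gave 18169 units in the control and 17115 units in the Dnmt1-null line. Its difference of -0.21 log2 was just past the scatter of 0.20 log2, and between -0.21 and -0.11 log2 under the other settings. It was smaller than 0.20 log2 with median scaling (-0.18 log2), cyclic loess (-0.18 log2) and in the authors' values (-0.11 log2). By the brightest probe of each gene, Rpl23a, Rpl39l, Rpl22 and Rplp0 were the 4 members of 56 that differed by more than the scatter of their level. Of these, 2 differed by more than 2 times the scatter. Dimmer probes of Rpl29, Rps19 and Rps3 also passed the scatter of their level. The scatter is a robust SD, so a part of all genes lies past it by construction, and that share was not counted here. Rpl35, also at the tunnel exit, gave 26138 and 27361 units and differed by -0.02 log2. Rpl19, which forms a bridge between the subunits, gave 6382 and 6022 units (-0.16 log2), and Rpl34 gave 11951 and 11346 units (-0.16 log2). Rpl28, at 17557 and 17788 units, and Rpl30, at 4004 and 3812 units, both differed by -0.12 log2.

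On the higher side, Rpl29 gave 9719 and 11628 units (0.19 log2), Rpl4, which reaches into the tunnel, gave 3030.03 and 3457 units (0.17 log2), and Rpl7a gave 3947 and 4407 units (0.11 log2). Rpl23 gave 28073 and 32935 units (0.11 log2), and Rpl21 gave 340 and 319 units (0.11 log2). The sign of Rpl21 turned with median scaling (-0.05 log2) and in the authors' values (-0.03 log2). That of Rpl23 turned only with the mean of all probes (-0.0066 log2), which takes in a probe detected on neither array. Rpl24, which bridges the subunits, gave 10982 and 11040 units (-0.06 log2). Rpl9, at 30035 and 31280.5 units (-0.04 log2), and Rpl41, at 38039 and 39060.1 units (0.05 log2), were also nearly level. The differences of Rpl12, Rpl27, Rpl27a, Rpl31, Rpl35a, Rpl37 and Rpl37a ran from -0.0072 to 0.07 log2.

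The 4 X-linked members were level too. Rps4x gave 22689 and 24592 units and held the same rank on both arrays, so its difference was 0.00 log2. Rpl10, among the last proteins to join the large subunit, gave 27964 and 28791 units (-0.04 log2), and Rpl36a gave 8971 and 9948 units (0.08 log2). Under the settings tried Rpl36a kept its sign, Rps4x ran from 0.00 to 0.09 log2, and Rpl10 and Rpl39 turned sign. The other members lay on 16 further chromosomes.

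**Figure D3:**
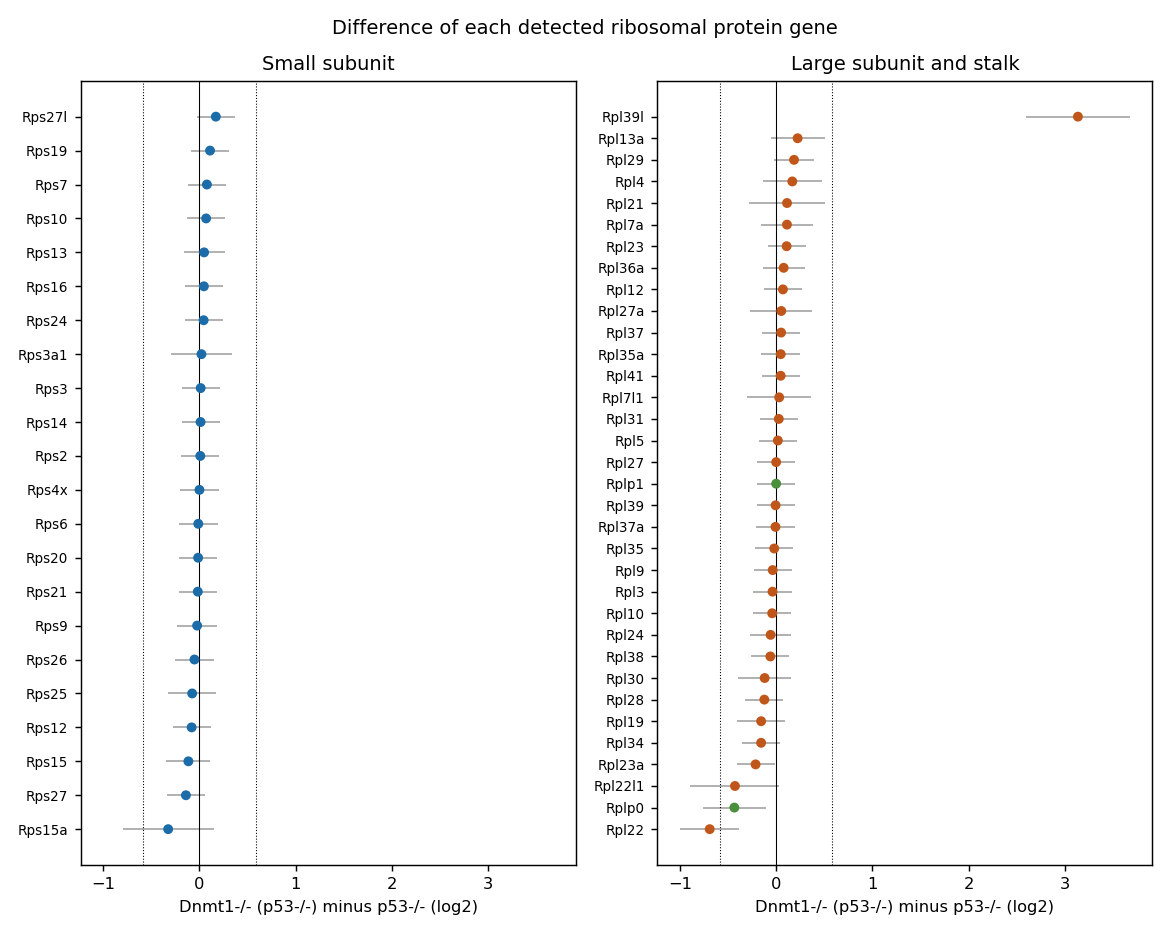
Difference of each detected ribosomal protein gene, Dnmt1-/- (p53-/-) minus p53-/- (log2, x axis), sorted within the small subunit (left, 22 genes) and the large subunit with its stalk (right, 34 genes). Grey bars are the robust SD of the difference over the 500 detected genes nearest in level, not replicate error, and dotted lines mark 1.5-fold. Rpl39l, plotted at its measured difference although it was not detected in the control, and Rpl22 lie outside the dotted lines.

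Genes read by several probes allow a check of the probe, though not of the sample. Of 11 genes with more than 1 detected probe, 9 had all differences on the same side of 0, and the median gap between the lowest and the highest was 0.16 log2. The widest gap, 0.46 log2, belonged to Rps19, whose dim probe gave 183 and 189 units and differed by 0.57 log2, against 0.11 log2 for its bright probe. For Rpl29 a dimmer probe, at 2660 and 3650.3 units, gave 0.44 log2, and for Rpl38 one at 2554 and 2064 units gave -0.31 log2. In 8 of the 11 genes the brightest probe had the smallest difference. A probe can also bind copies of similar sequence, of which ribosomal protein genes have many in the genome, so each value may include such transcripts.

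**Figure D4:**
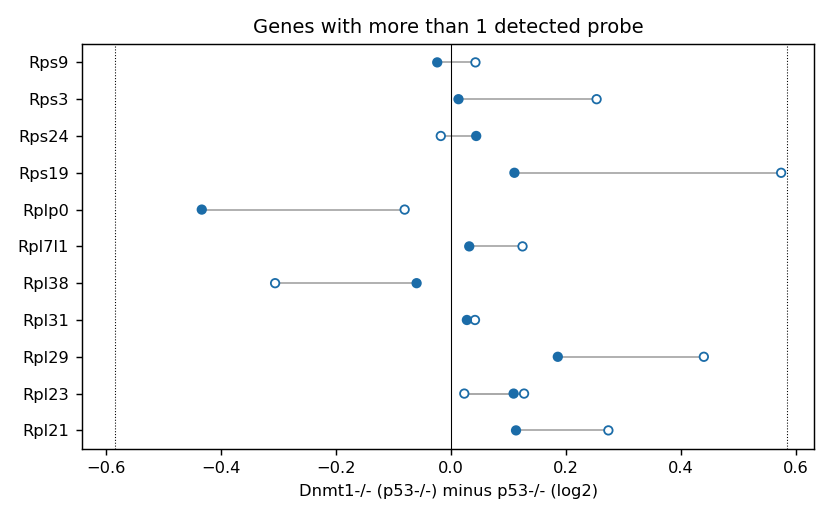
Difference by each detected probe, Dnmt1-/- (p53-/-) minus p53-/- (log2, x axis), of the 11 ribosomal protein genes with more than 1 detected probe. Filled points are the brightest probe of a gene, used in the comparison, open points its other probes, and dotted lines mark 1.5-fold; no probe passes these lines.

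The 6 members detected on neither array were Rpl6, Rpl14, Rpl17, Rps23, Rplp2 and Rpl3l, each read by 1 probe. Rpl6 gave 141 and 120.4 units, Rpl14 gave 156 and 139.6 units, Rpl17 gave 143 and 127 units, and Rps23 gave 130.4 and 117 units. These signals were near the array medians of 150.5 and 129.8 units, while other proteins of the same subunits were bright, so they give no level for these genes. Rpsa, the small subunit protein known as the laminin receptor, was similar, at 169 and 144 units by the brighter of 2 probes and detected in the control alone. Fau, which encodes a small subunit protein fused to a ubiquitin-like one, gave 14014 and 13293 units and differed by -0.18 log2, within a scatter of 0.20 log2.

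A pyrimidine stretch at the start of transcription was a feature that the rule did not use. The letters CTTTC, searched from 20 bases before to 30 bases after the annotated start, were found in 16 of 53 members with a promoter (30.2%) and in 7.66% of all 27025 genes. On the opposite strand they were found in 9.43% of members and 7.30% of all genes. The search was chosen after the values were seen, and annotated starts can miss the true start by some bases. To show the stretch, windows of 10 bases before to 20 bases after the start follow for 5 members, with CTTTC in capitals. They come from the same RefSeq build, at chr2:39005112-39005141 (minus), chr7:4792955-4792984 (plus), chr11:114668570-114668599 (plus), chr17:27635225-27635254 (minus) and chr3:90213629-90213658 (minus).
Rpl35: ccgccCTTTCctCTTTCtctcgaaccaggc
Rpl28: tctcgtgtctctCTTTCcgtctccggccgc
Rpl38: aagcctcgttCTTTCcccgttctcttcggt
Rps10: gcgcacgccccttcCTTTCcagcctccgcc
Rps27: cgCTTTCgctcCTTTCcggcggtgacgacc
The 15 detected members with the letters had a median difference of 0.05 log2, with Rps15a lowest at -0.32 log2 and Rpl39l, not detected in the control, highest at 2.20 log2 or more. The 33 without them had a median of 0.00 log2, from -0.69 (Rpl22) to 0.17 log2 (Rps27l). These groups overlapped and their difference was not tested.

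Other genes of the translation machinery lay within 1.5-fold as well, apart from 1 mitochondrial gene. Elongation factors and other genes known for TOP messenger RNAs had 15 of 16 members detected, with a median of 0.01 log2. Among them the nucleolar chaperone gene Npm1 stood at 14.67 and 14.58 log2 and the elongation factor gene Eef1g at 14.60 and 14.47 log2. Past the scatter of their level, 0 genes of this list were higher and 2 lower (Btf3 and Hnrnpa1). Initiation factors, with 21 of 24 detected, had a median of -0.06 log2 and ran from -0.58 (Eif2b2) to 0.40 log2 (Eif3k). Their brightest probes were those of the helicase gene Eif4a1 (-0.28 log2) and of Eif3i (-0.06 log2). Past the scatter of their level, 2 initiation factors were higher and 6 lower. A part of all genes lies past this scatter by construction. That share was not counted, so these counts have no comparison and were not tested.

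Ribosome assembly genes differed in both directions, all by less than 1.5-fold. Of 39 on the array 33 were detected, centred on 0.0067 log2 (median), with extremes of -0.56 (Pes1, needed for ribosomal RNA processing) and 0.43 log2 (Rrp9). Gnl3 differed by 0.0067 log2 and Eif6, which keeps the subunits apart, by 0.33 log2. Past the scatter of their level, 2 were higher (Rrp9 and Eif6) and 3 lower (Pes1, Ncl and Rrp12). For RNA polymerase I and its factors, which make ribosomal RNA, 13 of 15 were detected with a median of 0.12 log2. In that list the catalytic subunit gene Polr1a differed most, by -0.44 log2 beside a scatter of 0.33 log2 and against the direction of the median. Polr1d differed by 0.38 log2, also past its scatter of 0.25 log2, and Znrd1 by -0.09 log2. Regulators and chaperones of ribosomal proteins had 16 of 22 detected and a median of 0.04 log2. Mtor itself differed by -0.55 log2, Eif4ebp1, the translation inhibitor it phosphorylates, by 0.43 log2, and Rheb, which activates mTOR, by 0.27 log2, within its scatter. Past the scatter of their level, 1 gene of this list was higher (Eif4ebp1) and 2 lower (Mtor and Kpnb1). The share of all genes past their scatter was not counted, so these counts too have no comparison.

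Proteins of the mitochondrial ribosome, which are made from another set of nuclear genes, had 70 of 76 members detected. Their median was -0.0085 log2 and the robust SD 0.18 log2, 1 was higher by 1.5-fold or more (Mrpl4, 0.68 log2) and 0 lower. Like the cytosolic set, nearly all stayed within 1.5-fold. The smaller spread of the cytosolic set, 0.08 log2, came with brighter signals and was not tested against it.

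**Figure D5:**
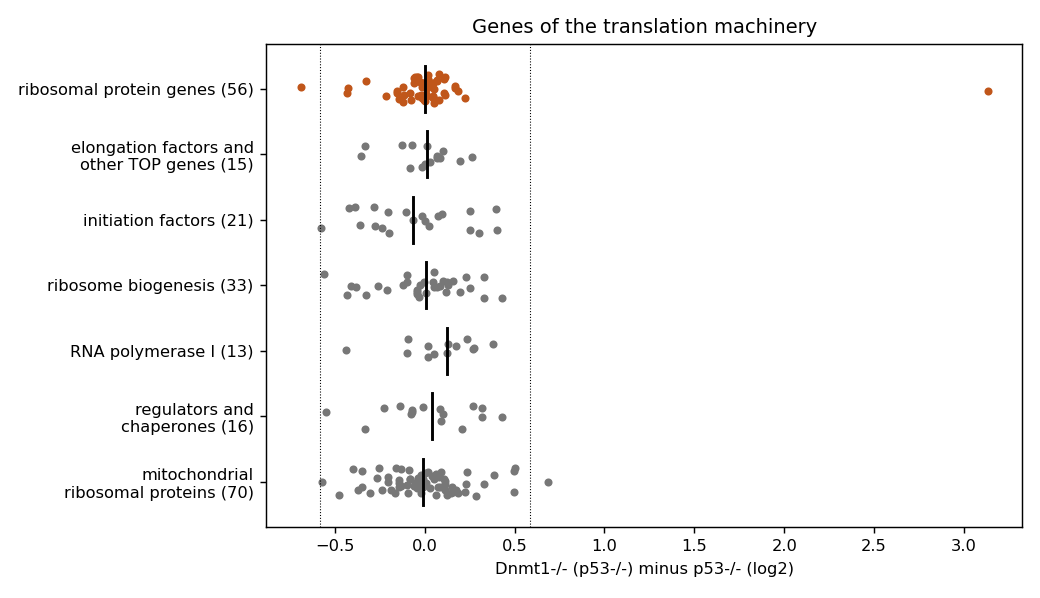
Difference of each detected gene, Dnmt1-/- (p53-/-) minus p53-/- (log2, x axis), for ribosomal protein genes (orange) and 6 other lists of the translation machinery (grey), with the number of detected genes in brackets. Thick lines are list medians and dotted lines 1.5-fold; Rpl39l, Rpl22 and the mitochondrial gene Mrpl4 are the points outside.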

How the data were processed

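Total RNA was amplified and biotin-labelled, per the labels' protocols. The deposited probe intensity values were linear and not normalized, per the file headers, with a deposited detection p-value beside each. The scanner software is not given in the sources used here. The authors also deposited processed intensity values, linear and in the same rank order, with a shared mean of 507 units and medians of 14.2 and 13.8 units, of unstated method. With limma 3.58.1 in R 4.3.3, neqc corrected the background from the detection p-values with an offset of 16 and normalized by quantiles, which was tested on simulated data. The probe brightest over both arrays stood for a gene. All 62 symbols were current in RefSeq. Python 3.11.15 was used. With 1 array per group no test was made, and precision is limited by this number of arrays.

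Members, lists and the named genes (the 10 largest increases and decreases, paralogs, X-linked, stalk and undetected members, and up to 4 per other list past 1.5-fold, else the 2 brightest) were chosen with earlier results of these data known. Other members are given for their roles.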

Additional observations from a re-analysis of the deposited data

How the results depend on the processing

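Settings tried were another offset (50), no background correction, median scaling, cyclic loess, the authors' processed values, re-centring, the mean of all probes, a detection limit of 0.05, no detection limit, and other memberships. The median difference ran from -0.03 to 0.04 log2 over 12 settings, above 0 in 4 and below 0 in 2. The counts of 1 higher and 1 lower gene held at 1.5-fold, except that 0 were higher without the paralogs and 0 lower at 2-fold, both by construction. Of 234 values of 26 named members, 233 either stayed past 1.5-fold in the same direction or stayed under it and moved by less than the scatter of their level, and Rps19 moved to 0.34 log2 with the mean of its probes. Median scaling and the authors' values also changed the split of all genes past 1.5-fold from 711 higher and 718 lower to 577 and 1047, and to 608 and 956, respectively. Without background correction it was 401 and 371. No paired analysis was possible because each group had 1 array.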

Other observations

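Some detected genes also had probes near background. Of 79 probes, 11 were detected on neither array at the limit of 0.01, and 5 of these belonged to 4 genes that another probe detected on both arrays. For Rpl37 2 probes gave 163 and 155 units in the control while the third gave 34591 units, and Rpl23 had a probe at 156 units beside one at 28073 units. The same held for Rpl4, with 152 units beside 3030.03 units, and for Rpl27a, with 156 units beside 2165 units. At the wider limit of 0.05 the brighter of these Rpl37 probes and the Rpl27a probe passed on both arrays.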
